A study of Mus musculus with 17 samples.

Results

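The genes described here are 42 genes of DNA replication in mouse CD8 T cells. They were chosen by symbol, from the proteins that load and start the replicative helicase, copy the DNA, join its fragments and supply its nucleotides. Each gene was represented by its brightest probe on an Illumina array, out of 85 probes that carry these symbols. Of the 42 genes, 40 had a probe above background on at least 3 of the 17 arrays and were tested together with all 10697 genes that passed this filter. Mcm8 and Pola1 were above background on no array and have no measured level. A gene that passed only through the group in which it was bright had to differ between groups, so counts over the 40 genes describe them and are not a test of the set.

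All cells were CD8 T cells derived from OT-I mice, whose transgenic T-cell receptor recognises a peptide of ovalbumin (OVA), on a C57Bl/6 background at an age of 2 to 6 months. The group labelled partial memory (Tpm, n = 4) had been cocultured with LSEC, the liver sinusoidal endothelial cells, which form the capillary wall of the liver and can present antigen. The effector group (Teff, n = 5) had been activated with dendritic cells (DC); the source label of 4 of them names a coculture with splenic DC, and that of Teff 8 names the spleen. The memory cells (n = 3) were taken from the spleen 3 months after infection with Listeria monocytogenes carrying OVA, and the naive cells (n = 5) were taken from the spleen. By these labels Tpm and Teff, apart from Teff 8, came from culture, and memory and naive cells came from animals. Nothing in the labels ties the arrays of 1 group to different mice or cultures, and the p-values therefore reflect the spread among these samples, which may be technical. Arrays are named by group and label number; the numbers 1 to 17 cross the groups, each used once.

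Before a cell divides, the origin recognition complex, Cdc6 and Cdt1 load the ring of Mcm2 to Mcm7 onto DNA, and geminin (Gmnn) blocks a second loading. The kinase Cdc7, with Cdc45, the GINS complex and Mcm10, turns the loaded ring into a moving helicase, behind which primase and the polymerases copy the strands while the clamp Pcna holds them on DNA. Resting T cells hold little of this machinery, and antigen brings it up as they enter the cell cycle, largely through transcription factors of the E2F family.

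The promoters of these genes are shown first, because E2F factors are known to act at many of them and most of the genes were called higher in Teff. Promoter windows of 250 bases before to 50 bases after the annotated start came from RefSeq, build GRCm38.p6, and 34 of the 42 genes had one. A window was searched on both strands for TTTCGCGC, TTTGGCGC or TTTCCCGC, which are E2F-type sites and can overlap one another. Such a match was present in 15 of the 34 genes (44.1%), against 573 of all 27025 genes in the table (2.12%). The cell-cycle homology region, searched as TTTGAA on both strands, was present in 6 of the 34 genes (17.6%), against 20.2% of all genes. The motif CCAAT, searched on both strands, was present in 21 of the 34 genes (61.8%), against 41.1% of all genes. A match is a description of the letters and not a shown binding site. The 4 windows below are those of the gene that fell in memory cells (Cdc6), the gene that fell in Tpm (Cdt1), a helicase subunit with 3 matches of which 2 overlap (Mcm6) and the helicase activator that changed most (Mcm10, with no match). Capitals mark the E2F-type matches, in the direction of transcription. The Mcm10 window ends in TTTGGCG, the start of TTTGGCGC, so whether a match runs across its end was not seen. Cdc6 lies at chr11:98907901-98908200 on the + strand, Cdt1 at chr8:122567765-122568064 on the + strand, Mcm6 at chr1:128359656-128359955 on the - strand and Mcm10 at chr2:5012742-5013041 on the - strand.
Cdc6: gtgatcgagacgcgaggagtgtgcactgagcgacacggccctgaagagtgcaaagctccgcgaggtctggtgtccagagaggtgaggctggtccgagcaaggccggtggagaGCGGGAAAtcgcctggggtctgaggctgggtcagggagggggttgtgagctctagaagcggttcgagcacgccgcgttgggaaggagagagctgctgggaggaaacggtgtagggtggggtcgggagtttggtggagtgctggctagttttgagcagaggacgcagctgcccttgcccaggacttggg
Cdt1: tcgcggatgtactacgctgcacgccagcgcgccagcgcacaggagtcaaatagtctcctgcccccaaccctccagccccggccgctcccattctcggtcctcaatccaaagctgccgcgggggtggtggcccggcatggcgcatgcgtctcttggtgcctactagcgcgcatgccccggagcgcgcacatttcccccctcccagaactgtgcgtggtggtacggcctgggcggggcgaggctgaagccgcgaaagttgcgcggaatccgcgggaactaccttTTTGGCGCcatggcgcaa
Mcm6: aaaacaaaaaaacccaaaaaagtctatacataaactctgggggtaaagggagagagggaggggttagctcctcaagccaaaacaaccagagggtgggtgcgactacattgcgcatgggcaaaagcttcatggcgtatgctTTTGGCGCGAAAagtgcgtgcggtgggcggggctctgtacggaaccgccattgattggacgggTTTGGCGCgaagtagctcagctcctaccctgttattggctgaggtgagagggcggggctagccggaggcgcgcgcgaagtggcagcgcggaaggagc
Mcm10: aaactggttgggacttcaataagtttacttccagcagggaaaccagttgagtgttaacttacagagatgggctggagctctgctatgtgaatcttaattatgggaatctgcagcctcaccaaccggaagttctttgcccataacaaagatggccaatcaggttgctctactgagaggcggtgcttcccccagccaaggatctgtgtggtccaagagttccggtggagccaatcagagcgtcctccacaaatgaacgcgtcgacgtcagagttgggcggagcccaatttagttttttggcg

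Of the arrays, 15 had a mean signal of 226.7 to 471.1 and 31.7% to 39.4% of probes above background. Memory 3 (mean signal 140.2) and memory 5 (96.7) were dimmer. Memory 5 had 19.9% of probes and 21 of the 40 replication genes above background, against 32 on memory 3 and 36 on memory 9. The number of arrays limits the precision of every value, and low levels on memory 5 rest on weak signals. Each array was nearest, by correlation, to its own group's mean, but that mean contains the array itself, which favours this outcome. Markers of CD8 T cells were present throughout, with 8 or 9 of the 9 measured markers above background on each array. Markers of other cells differed between groups. Endothelial markers were 2.28 to 2.97 above the naive mean on the Tpm arrays, as a mean of log2 levels over 14 genes, with 12 to 14 of them above background there, against 0.46 to 0.67 with 5 to 7 genes in Teff, -0.47 to 0.89 with 2 to 9 genes in memory and -0.16 to 0.10 with 3 to 6 genes in naive cells. Of these 14 genes, 9 were called higher in Tpm than in naive cells, while Pecam1 had a difference of -0.67. Stromal markers were 1.99 to 3.09 above the naive mean on the Tpm arrays over 6 genes, with 3 to 6 of them above background, against -0.06 to 0.03 in Teff with 0 or 1, 0.02 to 1.14 in memory with 0 to 3, and -0.05 to 0.07 in naive cells with 0. Dendritic cell markers were 0.78 to 0.90 above the naive mean on the Teff arrays over 4 genes, where Batf3 was called higher (4.66) and Siglech lower (-1.33), against -0.17 to 0.75 on the Tpm, -0.54 to 0.25 on the memory and -0.44 to 0.23 on the naive arrays. In Teff, 2 of the 4 dendritic cell markers lay above and 2 below naive cells, with a median difference of 0.03. The 2 measured B cell markers were called in no group. Endothelial, stromal and dendritic cells can divide as well, and their part in the replication gene levels of Tpm and Teff was not tested.

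The replication genes were higher in Teff than in naive cells almost throughout, and higher in Tpm for a minority of genes that lay mostly in helicase activation and nucleotide supply. Averaged over the 40 genes, the level on an array minus the naive mean was 0.71 on Tpm 4, 0.29 on Tpm 7, 0.58 on Tpm 14 and 0.56 on Tpm 15. The same mean lay between 1.66 and 1.77 on the 5 Teff arrays, at -0.10, -0.33 and -0.19 on memory 3, 5 and 9, and between -0.12 and 0.17 on the 5 naive arrays. All Tpm arrays thus lay above all naive arrays and below all Teff arrays, and the memory arrays overlapped the naive ones. All levels here are log2 values of background-corrected intensity with 16 added, so that 1 is 2-fold and changes of dim genes are understated. In bulk RNA, more dividing cells and more of a transcript in each cell cannot be told apart.

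**Figure D1:**
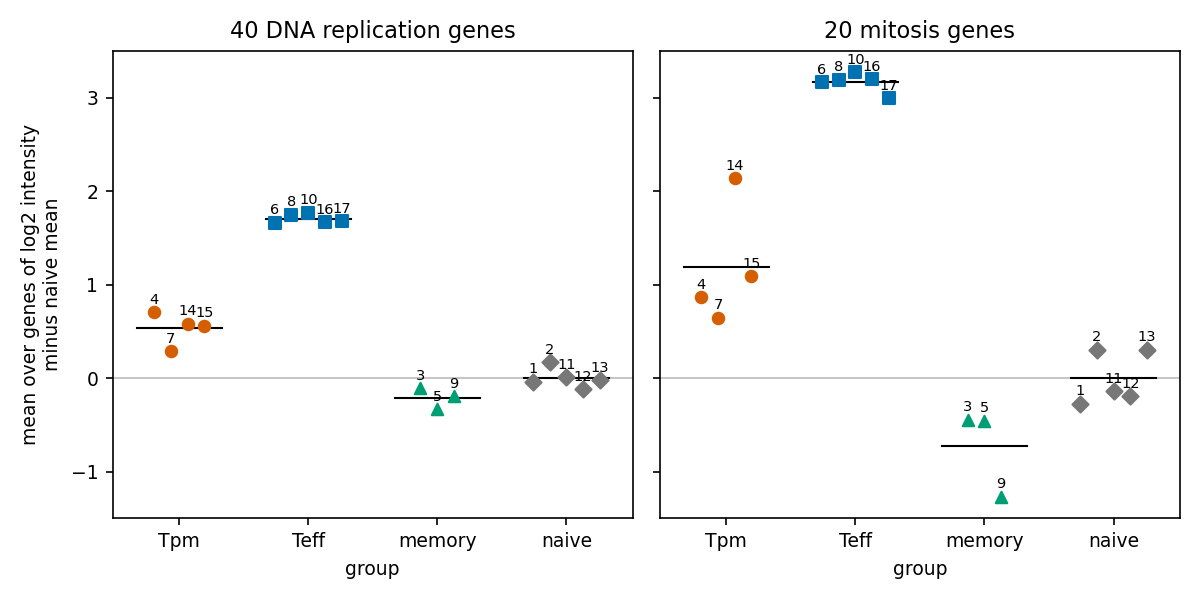
Mean over genes of the log2 level minus the naive mean, on each array (points, with the array number) and per group (lines), for the 40 tested replication genes (left) and 20 mitosis genes (right). Replication genes lay at 0.29 to 0.71 in Tpm, 1.66 to 1.77 in Teff, -0.33 to -0.10 in memory and -0.12 to 0.17 in naive cells; for mitosis genes Tpm 14 stood at 2.14 and the other Tpm arrays at 0.65 to 1.09.

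Calls required both 2-fold and an adjusted p below 0.05 (limma, with Benjamini-Hochberg adjustment across the 10697 genes). In Tpm against naive cells, 9 of the 40 genes were called higher and 1 lower, where 8.31% of all genes tested were called higher and 4.76% lower. The median difference of the 40 genes was 0.47, against 0.05 over all genes. Without background correction, as in the authors' deposited processed values, 4 genes were called higher and 1 lower in Tpm, and Cdc45 (0.72), Gins1 (0.46), Gins2 (0.44), Gins3 (0.45) and Rfc5 (0.85) lost the call. In Teff against naive cells, 33 were called higher and 0 lower, where 13.2% of all genes were called higher and 10.4% lower, with a median of 1.52 against 0.00. In memory against naive cells, 1 was called higher and 1 lower, where 5.55% of all genes were called higher and 6.87% lower, with a median of -0.31 against -0.05. Leaving out memory 3 gave 6 called genes in memory cells, leaving out memory 9 gave 4, and scaling each array to its median gave 0 higher and 18 lower, beside a shift of -0.75 in the median of all genes. With single arrays left out, all genes called in memory cells ranged from 1094 (without memory 5) to 1719 (without memory 9), against 1329 with every array. By adjusted p alone, without the 2-fold minimum, 17 genes were higher and 2 lower in Tpm, where 16.4% of all genes were higher and 9.3% lower. In Teff 36 were higher and 1 lower, where 22.7% of all genes were higher and 19.8% lower, and in memory cells 2 were higher and 5 lower, where 9.79% of all genes were higher and 11.6% lower. Other kept probes of the called genes had the same sign in 6 cases and the opposite in 0 in Tpm, and the same in 21 and the opposite in 1 in Teff, against naive cells. Teff had the highest of the 4 group means for 36 of the 40 genes, Tpm the second highest for 30 and memory the lowest for 24. These orders were not counted over all genes.

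The antigen-experienced groups were also compared with one another directly. In Tpm against Teff, 0 genes were called higher and 25 lower, where 7.38% of all genes were called higher and 7.64% lower, and the median difference was -1.13 against 0.04 over all genes. At adjusted p alone, 0 genes were higher and 33 lower, where 15.6% of all genes were higher and 13.3% lower, and without background correction 16 were called. In Tpm against memory cells, 13 were called higher and 1 lower, where 9.53% of all genes were called higher and 5.1% lower, with a median of 0.60 against 0.13. Without background correction 6 were called, and with each array scaled to its median 29, beside a shift of 0.90 in the median of all genes. In Teff against memory cells, 31 were called higher and 0 lower, where 15.1% of all genes were called higher and 10.6% lower, with a median of 1.79 against 0.07. These comparisons share arrays with one another and with the comparisons against naive cells. Of the 25 genes lower in Tpm than in Teff, 7 lost the call on leaving out 1 array. Prim1 did so on leaving out Tpm 14 (-0.87), Tpm 15 (-0.88), Teff 6, 8 or 10, memory 3 or any naive array, and its value ranged from -1.47 to -0.87. Cdt1 did so without Tpm 14 (-0.88), Tpm 15, Teff 6, 8 or 10, or naive 12, and Gmnn without Tpm 14, Tpm 15, Teff 6, Teff 8 (-0.84) or Teff 10. Mcm3 lost it without Tpm 4, Tpm 7 (-1.13), Teff 16 or Teff 17, Pold2 without Tpm 7 (-0.73), Teff 16 or Teff 17, Mcm5 without Tpm 7 (-0.88) and Rfc3 without Teff 8 (-0.998).

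**Figure D2:**
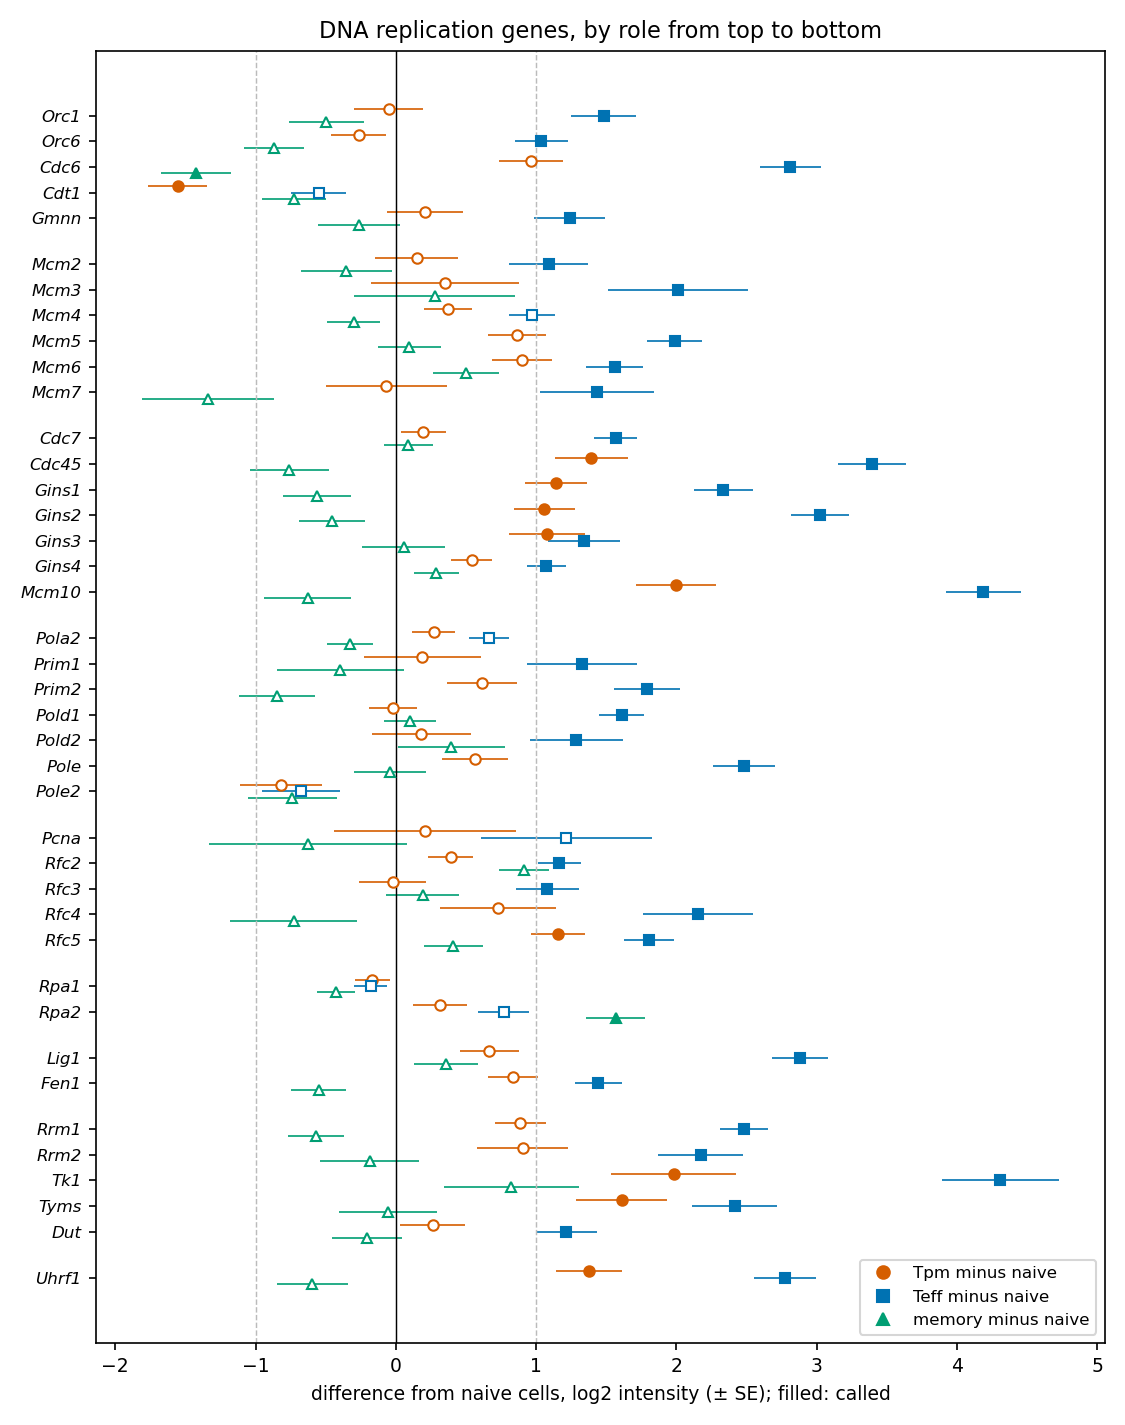
Difference of each of the 40 tested replication genes from naive cells in log2 intensity (points, with SE) for Tpm, Teff and memory cells, grouped by role from top to bottom; filled points were called and dashed lines mark 2-fold. The Teff points lie to the right of the dashed line for 33 called genes and for Pcna, which was not called, while 9 Tpm points are filled to the right of it and 1, Cdt1, to the left.

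Origin recognition and loading. None of the 5 genes of this role was called higher in Tpm than in naive cells and Cdt1 was called lower, whereas Orc1, Orc6, Cdc6 and Gmnn were called higher in Teff. Cdc6, the ATPase that recruits the helicase to the origin, had log2 levels of 7.23, 6.50, 7.16 and 6.90 on Tpm 4, 7, 14 and 15, and of 8.93, 8.93, 9.06, 8.57 and 8.49 on Teff 6, 8, 10, 16 and 17. It had 4.39, 4.45 and 4.85 on memory 3, 5 and 9, and 5.48, 6.65, 6.25, 5.70 and 5.84 on naive 1, 2, 11, 12 and 13. The Teff and memory arrays each lay apart from all others, and Tpm 7 lay among the naive arrays. Cdc6 was 2.81 ± 0.22 (SE) higher in Teff than in naive cells (adjusted p = 1.2e-08), 0.96 ± 0.23 above naive in Tpm (adjusted p = 0.0044, under 2-fold) and lower in memory cells, with a difference of -1.42 ± 0.25 (adjusted p = 0.00048). Only 1 of 3 memory arrays was above background for it. A second, dimmer Cdc6 probe, above background on 3 arrays, gave 0.09 in Tpm, -0.04 in Teff and 0.60 in memory cells against naive cells. With the mean over the probes, the memory difference was -0.41, and without background correction it was -0.51; neither was called.

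Cdt1, which brings the Mcm2 to Mcm7 ring to the origin with Cdc6, ran the other way. Its log2 levels were 9.54, 9.34, 8.79 and 9.04 on Tpm 4, 7, 14 and 15, 10.25, 10.52, 10.52, 10.00 and 9.61 on Teff 6, 8, 10, 16 and 17, 9.83, 9.84 and 10.35 on memory 3, 5 and 9, and 10.50, 11.01, 10.70, 10.70 and 10.74 on naive 1, 2, 11, 12 and 13. All Tpm arrays were below all arrays of the other groups. Cdt1 fell by 1.56 ± 0.21 in Tpm against naive cells (adjusted p = 2.7e-05) and lay at -0.55 ± 0.20 in Teff (adjusted p = 0.032, under 2-fold) and -0.73 ± 0.23 in memory cells (adjusted p = 0.030, under 2-fold). Scaling each array to its median in place of quantile normalization gave -1.43 in Tpm, which was not called. Erythroid markers differed between the groups, and Teff 8, whose source label names the spleen, lay with the other Teff arrays. As a mean of log2 levels over 5 genes against the naive mean, they stood at -5.68 to -5.49 on the Tpm arrays, where 0 or 1 of the 5 was above background, at -5.71 to -5.55 on the Teff arrays with 0, at -1.33 to 0.11 on the memory arrays with 3 to 5, and at -1.35 to 1.58 on the naive arrays with 4 or 5. The globin Hbb-bs was the gene above background on 1 Tpm array. Against naive cells, Cdt1 was 1.56 lower in Tpm and lay at -0.55 in Teff, the groups with at most 1 of these markers above background. In memory cells, with 3 to 5 of them, it lay at -0.73. The part of the erythroid markers in the Cdt1 difference was not tested.

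Orc1, the largest subunit of the origin recognition complex, had 4.45, 4.63, 4.93 and 5.10 on the Tpm arrays, 5.58, 6.40, 6.69, 6.23 and 6.66 on the Teff arrays, 4.54, 4.26 and 4.20 on the memory arrays and 4.46, 5.44, 4.85, 5.00 and 4.39 on the naive arrays. All Teff arrays were above all others, and only 2 Tpm, 0 memory and 2 naive arrays were above background. It was 1.48 ± 0.23 higher in Teff than in naive cells (adjusted p = 4.8e-05) and at least 1.90-fold higher in Teff than in memory cells, where it was not well above background (adjusted p = 1.3e-05). For such a bound, each dim array enters at its lowest signal well above background, or at the gene's level there if that is greater, and on memory 5 this floor was as high as 6.42. Geminin (Gmnn) had 5.08, 4.80, 4.48 and 4.28 on the Tpm arrays, 5.98, 6.35, 6.11, 4.91 and 5.11 on the Teff arrays, 4.22, 4.14 and 4.22 on the memory arrays and 4.31, 4.39, 4.93, 4.33 and 4.30 on the naive arrays. Teff 16 lay within the range of the naive arrays, and 2 Tpm, 5 Teff, 0 memory and 1 naive array were above background. Gmnn was 1.24 ± 0.25 higher in Teff than in naive cells (adjusted p = 0.00063) and at least 1.24-fold higher in Teff than in memory cells (adjusted p = 0.00049). Orc6, another subunit of the recognition complex, averaged 9.03 ± 0.11 in Tpm, 10.33 ± 0.22 in Teff, 8.43 ± 0.59 in memory and 9.30 ± 0.19 in naive cells (SD). Its Teff difference of 1.04 dropped below 2-fold on leaving out naive 1 (0.96) or Teff 17 (0.97).

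The Mcm2 to Mcm7 helicase. Of the 6 subunits of the ring that unwinds DNA, none was called in Tpm against naive cells and 5 were called higher in Teff, where Mcm4 was 0.97 ± 0.16 above naive (adjusted p = 9.7e-05), short of 2-fold. By the brightest probes, Mcm3 had the widest difference between Teff and naive cells (Mcm5, at 1.99, was close). It had 6.64, 5.26, 7.31 and 8.08 on Tpm 4, 7, 14 and 15, 8.43, 7.96, 8.27, 8.94 and 8.80 on the Teff arrays, 6.83, 7.99 and 5.42 on memory 3, 5 and 9, and 7.07, 5.31, 6.37, 6.94 and 6.66 on the naive arrays. Teff lay above every naive array but within reach of Tpm 15 and memory 5, and the other groups were widely spread. The difference was 2.01 ± 0.50 in Teff (adjusted p = 0.0031) and 0.35 ± 0.53 in Tpm (adjusted p = 0.70). Against memory cells, Teff was 1.73 higher, and the call was lost without memory 9 (1.08).

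Mcm2, Mcm5, Mcm6 and Mcm7 rose by 1.09 (Mcm2) to 1.99 (Mcm5) in Teff, with adjusted p between 2.1e-07 and 0.0080. In Tpm, Mcm5 was 0.87 ± 0.21 and Mcm6 0.90 ± 0.21 above naive (adjusted p = 0.0044 and 0.0046), both under 2-fold, with Tpm arrays above all naive arrays. Mcm2 (0.15), Mcm4 (0.37) and Mcm7 (-0.07) did not pass the test in Tpm. All 6 subunits were called higher in Teff than in memory cells, by 1.06 (Mcm6, lost without Teff 10 at 0.98) to 2.77 (Mcm7, 1.84 without memory 5). The other kept Mcm6 probes, all dimmer, gave 1.75 to 2.12 in Teff against memory cells. Against naive cells they gave 1.89 to 2.44 in Teff and 0.19 to 0.87 in Tpm.

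Helicase activation. Of the 7 measured genes, 5 were called higher in Tpm and 7 in Teff, against naive cells. Without background correction Mcm10 alone of the 7 was called in Tpm. Mcm10, which helps to turn the loaded ring into a moving helicase, had 8.18, 7.65, 8.99 and 8.10 on Tpm 4, 7, 14 and 15, 10.40, 10.34, 10.63, 10.34 and 10.41 on the Teff arrays, 6.11, 5.94 and 4.77 on the memory arrays and 5.99, 6.52, 6.42, 5.71 and 6.53 on the naive arrays. The Tpm arrays lay above all naive and memory arrays and below all Teff arrays. Mcm10 was 2.00 ± 0.28 higher in Tpm (adjusted p = 4.6e-05) and 4.19 ± 0.27 higher in Teff (adjusted p = 1.4e-09) than in naive cells, and lower in Tpm than in Teff, with a difference of -2.19 ± 0.28 (adjusted p = 1.4e-05). A second, dimmer probe of the gene gave 0.54 in Tpm and 2.80 in Teff against naive cells.

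**Figure D3:**
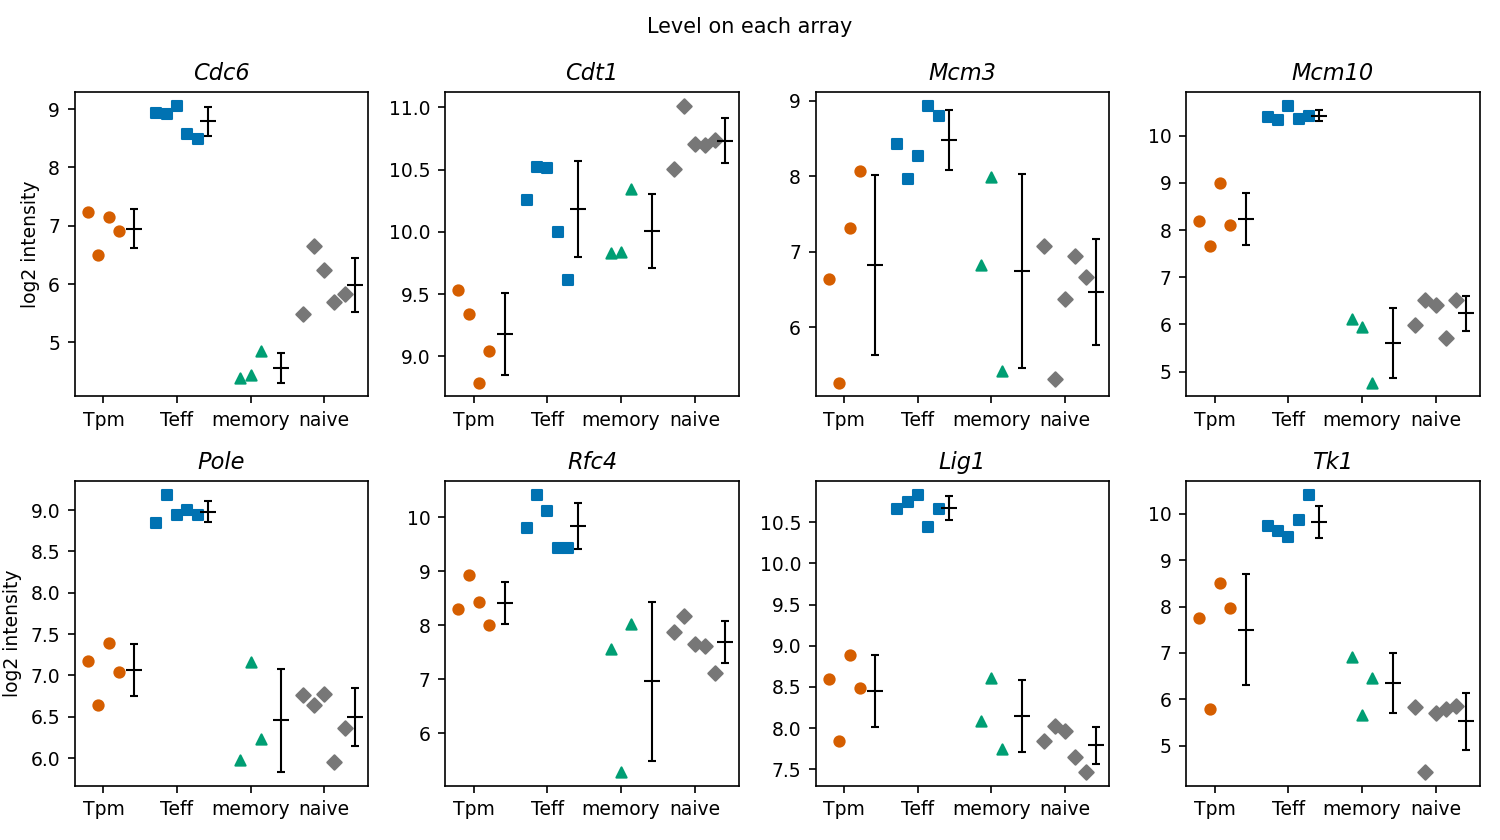
Log2 intensity of 8 replication genes on each array (points) with the group mean and SD (bars), in Tpm, Teff, memory and naive cells; each panel has its own vertical axis, which does not start at 0. Teff lies above all other arrays for Cdc6, Mcm10, Pole, Rfc4, Lig1 and Tk1, Tpm lies below all other arrays for Cdt1, and 1 Tpm and 1 memory array reach the Teff range for Mcm3.

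Cdc45 and the GINS subunits travel with the ring as the active helicase. Cdc45 averaged 7.09 ± 0.47 in Tpm, 9.09 ± 0.16 in Teff, 4.93 ± 0.45 in memory and 5.69 ± 0.49 in naive cells (SD), with all Tpm arrays above all naive arrays. It was 1.40 ± 0.26 higher in Tpm (adjusted p = 0.00062) and 3.40 ± 0.24 higher in Teff (adjusted p = 5.1e-09) than in naive cells. Gins1, Gins2 and Gins3 were 1.14, 1.06 and 1.08 higher in Tpm, with adjusted p of 0.00088, 0.0015 and 0.0065, and 2.34, 3.02 and 1.34 higher in Teff. Without Tpm 4, Gins2 was 0.88 higher in Tpm and lost the call. Its other kept probes, both dimmer, gave 0.84 and 0.15 in Tpm and 3.07 and 2.27 in Teff against naive cells. For Gins3 the means of Tpm (6.30 ± 0.13) and Teff (6.56 ± 0.31, SD) differed by less than their spread, with a difference of -0.26 ± 0.27 (adjusted p = 0.54), whereas Cdc45, Gins1 and Gins2 were called lower in Tpm than in Teff, with differences of -2.00, -1.20 and -1.96. Gins4 was 0.54 ± 0.15 above naive in Tpm (adjusted p = 0.012, under 2-fold) and 1.07 higher in Teff, where leaving out naive 11 gave 1.00 and no call. Cdc7, the kinase that triggers firing, rose by 1.57 ± 0.15 in Teff (adjusted p = 2.1e-07) and had a difference of 0.20 ± 0.16 in Tpm (adjusted p = 0.44).

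Against memory cells, Cdc45, Gins1, Gins2, Gins3 and Mcm10 were called higher in Tpm, by 2.15, 1.70, 1.51, 1.02 and 2.63. These memory levels lay close to background: Cdc45, Gins2, Gins3 and Mcm10 were above it on 2 of 3 memory arrays and Gins1 on 1. Dimmer kept probes gave 0.80 and 0.06 for Gins2 and 0.89 for Mcm10 in Tpm against memory cells. Gins3 lost the call without memory 5 (0.50), Tpm 7 (0.98) or Teff 16 (1.00), and in Teff against memory cells it had 0.77 without memory 5, against 1.28 with all arrays.

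DNA polymerases and primase. None of the 7 measured genes was called in Tpm against naive cells, and Prim1, Prim2, Pold1, Pold2 and Pole were called higher in Teff. Pole, the catalytic subunit of the leading-strand polymerase epsilon, had 7.17, 6.64, 7.40 and 7.04 on the Tpm arrays, 8.84, 9.18, 8.95, 9.00 and 8.94 on the Teff arrays, 5.98, 7.16 and 6.23 on the memory arrays and 6.76, 6.64, 6.77, 5.95 and 6.37 on the naive arrays. All Teff arrays stood above all others, and Tpm, memory and naive arrays overlapped. The difference from naive cells was 2.48 ± 0.22 in Teff (adjusted p = 6.5e-08) and 0.57 ± 0.23 in Tpm (adjusted p = 0.087). Pold1, the catalytic subunit of polymerase delta, rose by 1.61 ± 0.16 in Teff (adjusted p = 2.6e-07), and its Tpm difference was -0.02 ± 0.17 (adjusted p = 0.96). The primase subunits Prim1 and Prim2 rose by 1.32 and 1.79 in Teff and Pold2 by 1.29. Pola2, a subunit of the polymerase that extends primers, was 0.66 ± 0.14 above naive in Teff (adjusted p = 0.0011, under 2-fold). Pole2, a second subunit of polymerase epsilon, was dim and lay lower in all groups than in naive cells: at 4.45 in Tpm, 4.59 in Teff, 4.53 in memory and 5.27 in naive cells, with 1 of 4, 2 of 5, 0 of 3 and 4 of 5 arrays above background. Its differences of -0.82 in Tpm (adjusted p = 0.048) and -0.68 in Teff (adjusted p = 0.058) were under 2-fold. Prim2 was the member of the role called higher in Tpm than in memory cells (1.46 ± 0.28, adjusted p = 0.0011), with Tpm arrays above all memory arrays.

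Sliding clamp and clamp loader. Rfc5 was called higher in Tpm than in naive cells, and Rfc2, Rfc3, Rfc4 and Rfc5, subunits of the complex that opens the clamp, were called higher in Teff. Rfc5 had 8.76, 8.27, 8.28 and 8.06 on the Tpm arrays, 8.97, 8.75, 9.31, 8.91 and 9.01 on the Teff arrays, 7.53, 7.81 and 7.46 on the memory arrays and 7.00, 7.71, 6.82, 7.09 and 7.31 on the naive arrays. All Tpm arrays lay above all naive and memory arrays, and Tpm 4 overlapped Teff. It was 1.16 ± 0.19 higher in Tpm (adjusted p = 0.00022) and 1.80 ± 0.18 higher in Teff (adjusted p = 2.9e-07) than in naive cells. A second probe, near background, gave 0.03 and 0.36, and with the mean over the probes the Tpm difference was 0.59 and was not called.

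Rfc4 had 8.30, 8.94, 8.42 and 8.01 on the Tpm arrays, 9.81, 10.41, 10.13, 9.43 and 9.43 on the Teff arrays, 7.57, 5.28 and 8.03 on memory 3, 5 and 9, and 7.88, 8.18, 7.65, 7.61 and 7.12 on the naive arrays. Teff lay above all other arrays. The difference from naive cells was 2.15 ± 0.39 in Teff (adjusted p = 0.00021) and 0.73 ± 0.41 in Tpm (adjusted p = 0.23). In Tpm against memory cells Rfc4 was 1.46 higher, and the call was lost without memory 5 (0.62), Tpm 4, Tpm 7 or Tpm 14. Rfc3 had 4.74, 4.54, 4.50 and 4.56 on the Tpm arrays, 5.16, 5.97, 5.63, 5.79 and 5.89 on the Teff arrays, 4.24, 5.61 and 4.56 on the memory arrays and 4.82, 4.33, 4.32, 4.82 and 4.75 on the naive arrays. Teff lay above all Tpm and naive arrays, and no Tpm or memory array and 2 of 5 naive arrays were above background. Rfc3 was 1.08 ± 0.23 higher in Teff than in naive cells (adjusted p = 0.00077, 0.98 without Teff 8) and at least 1.84-fold lower in Tpm than in Teff (adjusted p = 0.0018). Rfc2 was 1.17 ± 0.15 higher in Teff and 0.92 ± 0.18 above naive in memory cells (adjusted p = 0.0011, under 2-fold). The other 3 kept Rfc2 probes gave 0.13, 0.03 and -0.23 in memory cells and 1.38 to 1.82 in Teff, against naive cells.

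Pcna, the clamp itself, was not called against naive cells in any group. It is given in full although the rule for named genes did not pick it, and was chosen after its values were seen. It had 7.82, 8.49, 6.54 and 6.43 on Tpm 4, 7, 14 and 15, 8.45, 9.23, 8.86, 7.54 and 7.55 on Teff 6, 8, 10, 16 and 17, 7.11, 4.49 and 7.86 on memory 3, 5 and 9, and 7.61, 8.19, 7.64, 6.20 and 5.91 on naive 1, 2, 11, 12 and 13. Within each of Tpm, Teff and naive cells, the arrays numbered 12 to 17 were all below those numbered 1 to 11. The difference from naive cells was 1.22 ± 0.61 in Teff (adjusted p = 0.13) and 0.21 ± 0.65 in Tpm (adjusted p = 0.87). Its call in Teff against memory cells (1.84, adjusted p = 0.046) was lost without memory 5 (0.85), Tpm 4, Teff 6, 8 or 10, or naive 1 or 11.

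The same split was fitted for all genes. It follows the labels, whose numbers run in pairs by group from 12 on, and was chosen with earlier results of these data known. The labels do not say what the numbers mark, and no memory array has a number above 9. In a fit with the numbers 12 to 17 (6 arrays) against 1 to 11 (11 arrays) as a covariate, 1 of the 40 genes was called lower on the later numbers and 0 higher, where 1.96% of all genes were called lower and 0.402% higher. The gene was Pcna, at -1.57 ± 0.37 (adjusted p = 0.015). Prim1 had -0.98 (adjusted p = 0.021), Gmnn -0.65 (adjusted p = 0.016) and Mcm6 -0.58 (adjusted p = 0.0021), all under 2-fold. Mcm6 was lower and Tyms higher on the later numbers within each of Tpm, Teff and naive cells, without overlap. With the covariate, the same genes were called in Tpm and in memory cells against naive cells, and Pcna, whose spread within groups the covariate takes up, had the same 1.22 in Teff with an adjusted p of 0.029. Within the numbers 1 to 11, Pcna was 1.04 above naive in Teff and 0.35 in Tpm, and within 12 to 17 it was 1.49 and 0.43 above.

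**Figure D4:**
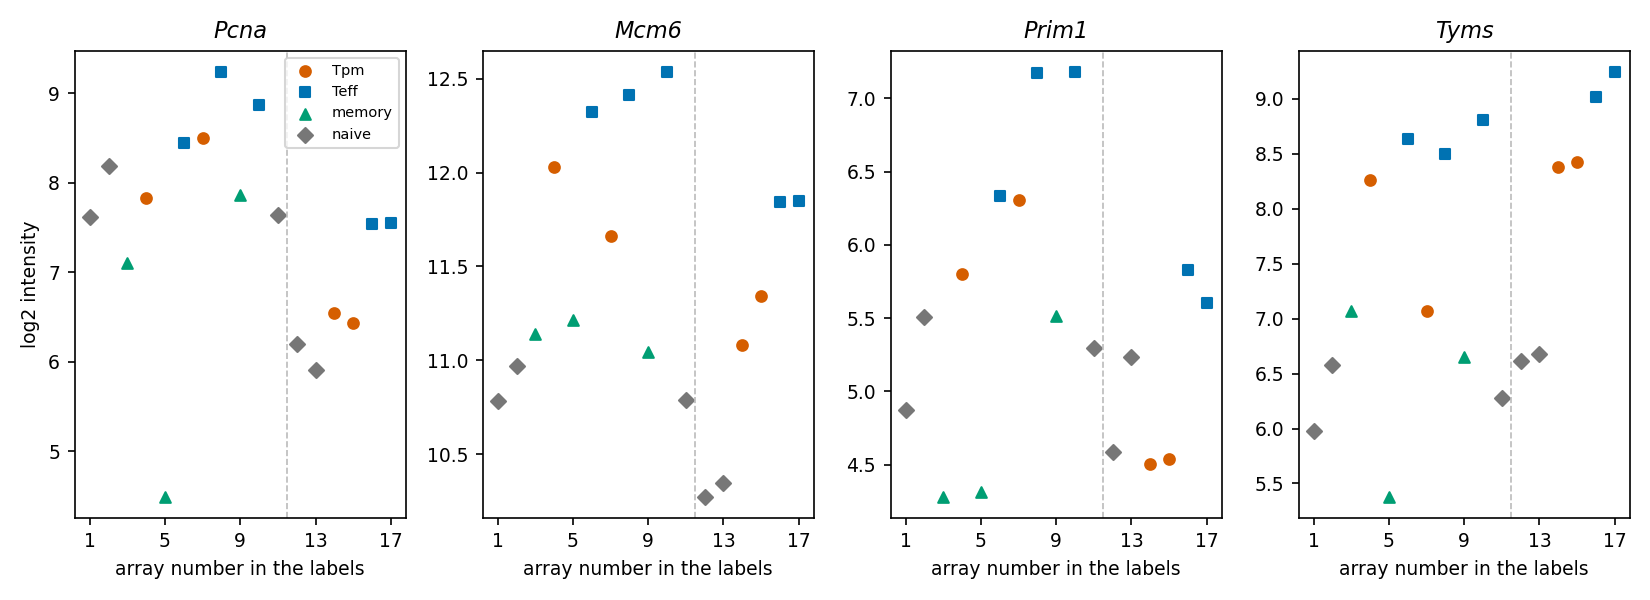
Log2 intensity of Pcna, Mcm6, Prim1 and Tyms on each array against the array's number in the labels, by group; the dashed line divides numbers 1 to 11 from 12 to 17, and each panel has its own vertical axis, which does not start at 0. Within Tpm, Teff and naive cells, Pcna and Mcm6 are lower and Tyms is higher to the right of the line.

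Single-stranded DNA binding. Rpa1 and Rpa2, subunits of the complex that coats unwound DNA, were called in neither Tpm nor Teff against naive cells. Rpa1 was bright and even, at 12.25 ± 0.05 in Tpm, 12.24 ± 0.11 in Teff, 12.00 ± 0.13 in memory and 12.42 ± 0.12 in naive cells (SD), with differences from naive of -0.17, -0.18 and -0.42. Rpa2 was the single gene called higher in memory than in naive cells, and was looked at for that reason after its values were seen. It had 7.10, 7.13, 7.10 and 7.06 on the Tpm arrays, 7.65, 7.78, 7.94, 7.30 and 7.09 on the Teff arrays, 8.30, 8.73 and 8.02 on memory 3, 5 and 9, and 6.99, 6.75, 7.07, 6.56 and 6.54 on the naive arrays. All memory arrays lay above all others, with the dim memory 5 highest. It was 1.57 ± 0.21 higher in memory than in naive cells (adjusted p = 3.6e-05) and lower in Tpm than in memory cells, with a difference of -1.25 ± 0.22 (adjusted p = 0.00048). Its other probes gave 0.72 and -0.07 in memory against naive cells. With the mean over the probes the memory difference was 0.74, and with each array scaled to its median it was 0.09; neither was called. Under that scaling the difference of Tpm from memory cells turned to 0.36 (adjusted p = 0.53).

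Okazaki fragment maturation. Lig1, the ligase that seals the lagging strand, had 8.59, 7.85, 8.89 and 8.49 on Tpm 4, 7, 14 and 15, 10.66, 10.75, 10.83, 10.44 and 10.66 on the Teff arrays, 8.08, 8.61 and 7.74 on the memory arrays and 7.84, 8.02, 7.96, 7.65 and 7.47 on the naive arrays. Teff lay above all other arrays, and Tpm 7 lay among the naive arrays. Lig1 was 2.88 ± 0.20 higher in Teff than in naive cells (adjusted p = 3.1e-09), 0.67 ± 0.21 above naive in Tpm (adjusted p = 0.027, under 2-fold) and lower in Tpm than in Teff, with a difference of -2.21 ± 0.21 (adjusted p = 5.1e-07). Fen1, the nuclease that trims the fragments, averaged 9.75 ± 0.31 in Tpm, 10.36 ± 0.24 in Teff, 8.37 ± 0.06 in memory and 8.92 ± 0.26 in naive cells (SD). It rose by 1.44 in Teff, was 0.83 ± 0.18 above naive in Tpm (adjusted p = 0.0021, under 2-fold) with all Tpm arrays above all naive arrays, and was 1.38 ± 0.21 higher in Tpm than in memory cells (adjusted p = 9.8e-05).

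Nucleotide supply and maintenance methylation. Tk1 and Tyms, enzymes of thymidylate synthesis, were called higher in Tpm than in naive cells, and all 5 supply genes were called higher in Teff. Tk1, the thymidine kinase of S phase, had 7.75, 5.78, 8.51 and 7.97 on Tpm 4, 7, 14 and 15, 9.74, 9.63, 9.51, 9.88 and 10.41 on the Teff arrays, 6.92, 5.65 and 6.46 on the memory arrays and 5.84, 4.43, 5.69, 5.79 and 5.85 on the naive arrays. Tpm 7 was within the naive range and the other Tpm arrays were above it. Tk1 was 1.98 ± 0.44 higher in Tpm (adjusted p = 0.0028) and 4.31 ± 0.42 higher in Teff (adjusted p = 1.95e-07), the widest difference of the 40 genes from naive cells. With the arrays numbered 1 to 11 alone, the Tpm difference was 1.44 and was not called. A second, dimmer Tk1 probe, above background on 8 arrays, gave 0.33 in Tpm and 1.71 in Teff. Tyms, thymidylate synthase, averaged 8.03 ± 0.64 in Tpm, 8.84 ± 0.30 in Teff, 6.37 ± 0.88 in memory and 6.43 ± 0.29 in naive cells (SD), a difference from naive of 1.61 ± 0.32 in Tpm (adjusted p = 0.0011) and 2.42 ± 0.30 in Teff. A dimmer Tyms probe gave 0.54 and 1.06.

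Rrm1 and Rrm2 form the ribonucleotide reductase that makes deoxynucleotides. They were 2.48 and 2.17 higher in Teff, and 0.89 (adjusted p = 0.0015) and 0.91 (adjusted p = 0.049) above naive in Tpm, both under 2-fold. Both were called higher in Tpm than in memory cells, Rrm1 by 1.46 and Rrm2 by 1.09; the call of Rrm2 was lost without Tpm 7, Tpm 14 (0.87), memory 3 (0.83) or memory 9. Dut, which removes dUTP, rose by 1.22 in Teff and had 0.26 ± 0.23 in Tpm (adjusted p = 0.47). Uhrf1, which guides DNA methylation to newly copied strands, had 10.97, 10.46, 10.80 and 10.31 on the Tpm arrays, 12.07, 11.98, 12.15, 12.02 and 11.94 on the Teff arrays, 9.16, 8.95 and 7.88 on the memory arrays and 9.23, 9.74, 9.25, 8.91 and 9.16 on the naive arrays. The Tpm arrays lay between the Teff and the naive arrays without overlap. Uhrf1 was 1.38 ± 0.23 higher in Tpm (adjusted p = 0.00025) and 2.78 ± 0.22 higher in Teff (adjusted p = 1.6e-08) than in naive cells.

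The other genes of the replication and division programme gave a wider view. Of 34 further genes of the replication machinery, 3 were called higher and 1 lower in Tpm, and 17 higher and 1 lower in Teff, against naive cells. The Tpm shares of 8.82% higher and 2.94% lower were near those of all genes, 8.31% and 4.76%. In Teff the shares were 50% and 2.94%, against 13.2% and 10.4% of all genes. The genes called higher in Teff were led by the histone chaperone subunit Chaf1a (3.08), the checkpoint adaptor Clspn (2.47) and the fork protector Tipin (2.18), while the recognition subunit Orc4 fell by 1.01. In Tpm, Tipin (1.10), Chaf1a (1.09) and the ribonuclease subunit Rnaseh2b (1.07) rose and Dbf4, the activating subunit of the Cdc7 kinase, fell by 1.37 ± 0.16 (adjusted p = 5.1e-06). Dbf4 had -0.44 in Teff (adjusted p = 0.022, under 2-fold) and fell by 2.23 in memory cells.

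Of 15 further genes of nucleotide metabolism, 3 were called higher and 0 lower in Tpm and 3 higher and 1 lower in Teff. In Tpm 20% were thus higher, where 8.31% of all genes were called higher and 4.76% lower. In Teff 20% were higher and 6.67% lower, where 13.2% of all genes were called higher and 10.4% lower. The serine hydroxymethyltransferase Shmt1 was 2.63 ± 0.35 higher in Tpm and 2.01 ± 0.33 higher in Teff, and Dctpp1, which breaks down dCTP, was 1.60 and 1.70 higher. The thymidylate kinase Dtymk rose by 1.08 in Tpm and had 0.48 in Teff (adjusted p = 0.0077, under 2-fold), and its direct difference of 0.60 between Tpm and Teff was under 2-fold (adjusted p = 0.0041). In Teff the purine enzyme Paics rose by 1.53 and the mitochondrial thymidine kinase Tk2 fell by 1.16. Of 19 E2F and S-phase regulators, 2 were called higher in Tpm and 8 in Teff, with 0 lower in either. The share called higher was 10.5% in Tpm, near that of all genes, and 42.1% in Teff. In Teff, E2f1 (2.44), E2f2 (1.93) and Tfdp1, an E2F partner (1.62), rose. In Tpm, Tfdp1 (1.47) and E2f6, a repressive E2F (1.34), rose, while E2f1 had 0.73 ± 0.17 (adjusted p = 0.0033, under 2-fold) and was lower in Tpm than in Teff, with a difference of -1.70 (adjusted p = 7.3e-07).

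Of 20 mitosis genes, 13 were called higher in Tpm and 20 in Teff against naive cells, with median differences of 1.49 and 3.72. Of all genes, 8.31% were called higher in Tpm and 13.2% in Teff. The kinases Plk1 (2.20) and Aurkb (1.91) and the spindle factor Tpx2 (1.93) led in Tpm, and Aurkb (4.90), Tpx2 (4.39) and Cdk1, the kinase that drives entry into mitosis (4.14), led in Teff. The mean over these genes minus the naive mean was 0.87, 0.65, 2.14 and 1.09 on Tpm 4, 7, 14 and 15 and 2.99 to 3.27 on the Teff arrays. Tpm 14, which stood apart from the other Tpm arrays in mitosis genes, did not do so for the replication genes (0.58). Macrophage markers were 2.20 above the naive mean on Tpm 14 over 8 genes, with 8 above background, and -0.87 to -0.61 on the other Tpm arrays with 1 or 2. Naive 1 and 11 also had them, at 1.01 and 1.07. Without Tpm 14, 10 replication genes were called higher and 1 lower in Tpm against naive cells, and without Tpm 7, 12 higher and 1 lower. With single arrays left out, all genes called in Tpm against naive cells ranged from 1329 to 1468, against 1398 with every array. The part of the macrophage markers in the mitosis level of Tpm 14 was not tested.

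The calls were also counted by the E2F-type match in the promoter window. Of 13 tested genes with a match, 11 were called higher in Teff against naive cells, with a median difference of 1.56. Of 19 with a window and no match, 15 were, with a median of 1.44. In Tpm, 2 of the 13 were called higher and 1 lower (Cdt1), and 5 of the 19 were called higher. Mcm10 and Tk1, whose windows hold no full match, had the widest differences in Teff, and Pole2, whose window holds 1, was not called. The Mcm10 window is cut within TTTGGCG, so its place among the genes without a match is uncertain. These counts are descriptions, and no test of the difference was made.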

How the data were processed

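RNA of 17 CD8 T-cell samples was extracted with QIAzol and miRNeasy columns, made into biotinylated cRNA with a TargetAmp Nano-g kit and hybridised to Illumina mouse arrays, per the labels' protocols. For the scanner, its software and the authors' normalization, the sources used here name no steps. The authors deposited an intensity per probe on a linear scale for 45281 probes, in a non-normalized and in a processed table, and the values show that the processed one is quantile normalized without background correction. The non-normalized table was used, and all its 17 array columns were matched to samples through the labels.

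Background was estimated on each array from the mode of the signals and the spread below it, corrected with normexp with an offset of 16, quantile normalized and taken to log2, with limma 3.58.1 in R 4.3.3, so the log2 levels are not the authors' deposited values. A probe was above background at a one-sided p of 0.01 (2.326 SD above the mode), and was kept if so on at least 3 arrays, which left 20172 probes. GEO's platform annotation, updated by gene ID, gave 34885 probes with 1 symbol, 18 with several and 10378 with none. Each of 10697 genes was represented by its brightest kept probe, and 4178 genes had several. The 17 arrays were fitted together in limma with a mean for each of the groups, and with two-sided tests adjusted by the Benjamini-Hochberg method over all genes and called at an adjusted p of 0.05 and 2-fold. The limma fit and the calls were tried on simulated gene levels for Teff against naive cells, and the steps before the fit were not.

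The genes, pathway lists and marker lists were chosen with earlier results of these data known. Values on every array are given for, in each role, the called gene with the widest difference in Teff and in Tpm from naive cells, every gene called lower than naive, and every called gene above background on no array of a group. Groups followed the labels, and Teff 8 was kept in Teff by its title although its source label names the spleen. Alternatives were the background correction, offset, normalization, filter, choice of probe, array weights, samples in the fit, each array left out, and the array number.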

Additional observations from a re-analysis of the deposited data

Results flagged for a closer look

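In a group of 4 or 5 arrays, a level was picked out where its gap to the nearest other array exceeded Dixon's 95% critical value relative to the range of the group. Chance picks out about 1 in 20 groups, and here 12 levels of 9 genes stood apart in 120 groups tested. On Tpm 7 the log2 levels of Orc6 (8.86, others 9.08 to 9.09), Mcm5 (9.95, others 10.87 to 10.92) and Tyms (7.07, others 8.26 to 8.42) were low. On Tpm 4 the levels of Pola2 (8.02, others 7.74 to 7.77) and Pole2 (5.06, others 4.19 to 4.31) were high. Among Teff arrays, Gins4 was low on Teff 8 (10.26, others 10.44 to 10.48), Pola2 was low on Teff 17 (7.96, others 8.23 to 8.33) and Mcm10 was high on Teff 10 (10.63, others 10.34 to 10.41). Among naive arrays, Gmnn was high on naive 11 (4.93, others 4.30 to 4.39), Pole2 was high (6.15, others 4.88 to 5.12) and Tk1 low on naive 2 (4.43, others 5.69 to 5.85), and Pola2 was low on naive 12 (7.14, others 7.57 to 7.70). Tk1 was not well above background on naive 2.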

How the results depend on the processing

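The 115 called differences of replication genes, tried under the alternative settings, gave 3516 values, of which 3274 kept the call, 241 lost it and 1 reversed. The reversed one was Rpa2 in Tpm against memory cells, at 0.36 (adjusted p = 0.53) with each array scaled to its median. Most settings left out a single array, and the adjusted p alone could lose no call. The authors' processed values repeated the setting without background correction, with 77 kept and 38 lost in each. The share kept is therefore no measure of robustness. Without background correction, and likewise with the authors' processed values, 5 replication genes were called in Tpm and 1 in memory against naive cells, 16 in Tpm against Teff and 6 in Tpm against memory cells. Over all genes these settings called 595 in Tpm, 1389 in Teff and 596 in memory against naive cells, 795 in Tpm against Teff, 681 in Tpm and 1525 in Teff against memory cells, where the main processing called 1398, 2529, 1329, 1606, 1565 and 2745. With an offset of 50 the replication genes called were 5 in Tpm and 1 in memory against naive cells, 16 in Tpm against Teff and 9 in Tpm against memory cells, and all genes called were 863, 841, 1069 and 1002 in the same comparisons. Median scaling called 895 genes in Tpm against naive cells (671 higher and 224 lower), and in memory against naive cells 18 replication genes and 3685 of all genes (83 higher and 3602 lower). It called 29 replication genes in Tpm against memory cells and 4555 of all genes (4500 higher and 55 lower), and 5175 of all genes in Teff against memory cells (5073 higher and 102 lower). It moved the median of all genes by 0.90 in Tpm and 1.03 in Teff against memory cells, by -0.75 in memory, 0.17 in Teff and 0.07 in Tpm against naive cells, and by -0.12 in Tpm against Teff. The mean over the probes of a gene called 0 replication genes in memory against naive cells, where the main setting called 2. A fit of Tpm and memory cells alone called 941 of all genes. Leaving out both memory 3 and memory 5 called 4 replication genes in memory cells (1 higher and 3 lower). With the adjusted p alone, 19 replication genes were called in Tpm and 7 in memory against naive cells, and all genes called were 2751, 4545 and 2283 in Tpm, Teff and memory against naive cells, 3102 in Tpm against Teff, 2619 in Tpm and 4344 in Teff against memory cells. The arrays numbered 1 to 11 alone, and 12 to 17 alone, were chosen after seeing the data, and called 6 and 12 replication genes in Tpm against naive cells. The later numbers held only Tpm 14 and 15, Teff 16 and 17 and naive 12 and 13, and the earlier only Tpm 4 and 7 of the Tpm arrays. The calls over all genes in these small fits are not given, so these counts say nothing particular to the replication genes. The cause of these changes was not tested.

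With each array left out in turn, replication genes called ranged from 10 to 13 in Tpm, 32 to 34 in Teff and 2 to 6 in memory against naive cells, 21 to 25 in Tpm against Teff, 12 to 14 in Tpm and 29 to 32 in Teff against memory cells. All genes called ranged from 1329 to 1468 in Tpm, 2432 to 2593 in Teff and 1094 to 1719 in memory against naive cells. They ranged from 1482 to 1807 in Tpm against Teff, 1342 to 1952 in Tpm and 2553 to 3085 in Teff against memory cells. No paired analysis was made, because the labels do not link arrays of different groups to a shared mouse, culture or day. Depth limits the memory group most, since memory 5 had 21 of the 40 genes above background.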

Other observations

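The memory mean was below the naive mean for 26 of the 40 replication genes, against 5762 of all 10697 genes. By adjusted p alone the lower ones were Cdc6, Orc6 (-0.87), Cdt1, Prim2 (-0.84) and Rpa1 (-0.42), and the higher ones Rpa2 and Rfc2. These are 5 and 2 of 40 genes, where 11.6% of all genes were lower and 9.79% higher by the same rule.

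Genes beyond these 40 gave wider differences in memory cells. Dbf4, the activating subunit of the Cdc7 kinase, had 8.52, 8.62 and 8.20 on memory 3, 5 and 9, against 10.61, 10.80, 10.56, 10.78 and 10.61 on naive 1, 2, 11, 12 and 13, without overlap and above background on all of these arrays. It fell by 2.23 ± 0.17 (limma, adjusted p = 4.1e-08). The checkpoint adaptor Clspn fell by 2.23 ± 0.30 (adjusted p = 3.0e-05) and E2f3, an E2F activator, by 1.84 ± 0.23 (adjusted p = 1.7e-05), with 2 and 1 of the 3 memory arrays above background. In all, 4 of 34 further replication genes, 1 of 19 E2F and S-phase regulators and 5 of 20 mitosis genes were called lower and 0 higher. The shares called lower were 11.8%, 5.26% and 25%, where 6.87% of all genes were called lower and 5.55% higher. Cenpa, the centromere histone, was the mitosis gene with the smallest adjusted p, and fell by 2.30 ± 0.26 with 10.66, 10.47 and 9.36 on the memory arrays against 11.92 to 12.66 on the naive arrays.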
